A study of Mus musculus with 8 samples.

Results

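The genes that make, bind and break down retinoic acid (RA) were followed in long-term hematopoietic stem cells (LT-HSCs) that lacked *IκBα*. The 9 genes were *Rdh10*, *Dhrs3*, *Aldh1a1*, *Aldh1a2*, *Aldh1a3*, *Crabp1*, *Crabp2*, *Cyp26a1* and *Cyp26b1*. They were chosen by name, and all 9 were found among the 55487 genes of the count table by their Ensembl identifier. RNA-seq had been carried out on 500 LT-HSCs per sample, sorted as LSK CD48- CD150+ cells from the fetal liver (FL) of E14.5 mouse embryos. The 3 *IκBα* WT, 3 HET and 2 KO samples came from matings of HET parents that carried a targeted *Nfkbia* allele (*IκBα* is encoded by *Nfkbia*), so that the KO lacked the gene in every cell of the embryo and the HET kept 1 copy. WT1, WT2 and HET1 were male and labelled total RNA, while WT3, HET2, HET3, KO1 and KO2 were female and labelled polyA RNA. Sex and that label therefore cannot be told apart, and both KO samples were on the female side. The labels and methods do not say that the samples of a genotype came from different litters, so the p-values measure the spread between these samples.

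Retinoic acid is made from vitamin A in a pair of oxidation steps. Retinol dehydrogenases such as RDH10 convert retinol to retinal, which DHRS3 can reduce back to retinol, and the ALDH1A enzymes then oxidize retinal to RA irreversibly. CRABP1 and CRABP2 carry RA inside the cell, CYP26 enzymes oxidize it to inactive products, and RA itself acts on nuclear receptors of the RAR and RXR families. *Cyp26a1*, *Cyp26b1* and *Dhrs3* are known RA target genes in many tissues, and RA signaling with CYP26B1 is known to control dormancy of adult HSCs.

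Between 17895973 and 21720972 reads were counted on genes per sample. Levels are given as reads, or as CPM (reads scaled to library size and the TMM factor), on which 3 reads correspond to between 0.125 and 0.178 CPM. A level at or below 3 reads is treated as not measurable, and this floor covers counting error only. *Nfkbia* had 968, 1621 and 450 reads in WT1, WT2 and WT3, and 439, 574 and 243 in HET1, HET2 and HET3. It had 1 and 0 reads in KO1 and KO2, so the deleted gene followed the labels. The cells were also checked by 6 HSC marker genes (*Slamf1*, *Kit*, *Ly6a*, *Procr*, *Mecom* and *Hlf*). Their summed level was 994, 1050 and 207 CPM in WT1, WT2 and WT3, 353, 352 and 189 CPM in HET1, HET2 and HET3, and 850 and 633 CPM in KO1 and KO2. WT3 and HET3 were thus the lowest, and in HET3 the defining marker *Ly6a* had 0 reads and *Procr* 19. The transcript of *Cd48*, whose protein the sort selected against, was at 45.8 to 89.1 CPM over all samples, highest in HET1. *Kit* made up most of the HSC sum in WT3 and HET3 (148 and 170 CPM) and was not low there, with 135 to 231 CPM in the other 6. The same 2 libraries had the highest summed level of 9 hepatocyte or hepatoblast markers, 1430 CPM in WT3 and 722 CPM in HET3, against 129 to 399 CPM in the other 6. Within that list, *Dlk1* ran the other way (390 CPM in WT2 and 44.0 CPM in HET3), and without it the sum was 1360 and 678 CPM in WT3 and HET3, 101 to 246 CPM in HET1, HET2 and KO2, and 8.03 to 10.1 CPM in WT1, WT2 and KO1. *Alb* alone had 7291 and 2298 reads there, and 5 to 897 in the others. The fold changes of the tested genes are therefore also given without WT3 and HET3. HET2 is then the only female reference. With sex in the model, the KO fold changes of that setting thus set KO1 and KO2 against HET2 alone. In bulk samples, fewer cells of a type and less RNA per cell cannot be told apart.

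Of the 9 genes, only *Rdh10* and *Dhrs3* had more than 3 reads in every sample. *Aldh1a3* and *Crabp1* were at or below 3 reads in every sample. The other 5 crossed that floor in some samples only, and *Cyp26b1* was the single one of them with a mean above 1 CPM. Over the 72 pairs of a gene and a sample, 41 were at or below 3 reads and 31 were at 0. The 5 genes *Aldh1a1*, *Aldh1a2*, *Rdh10*, *Dhrs3* and *Cyp26b1* had the 10 summed reads required to be tested.

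**Figure D1:**
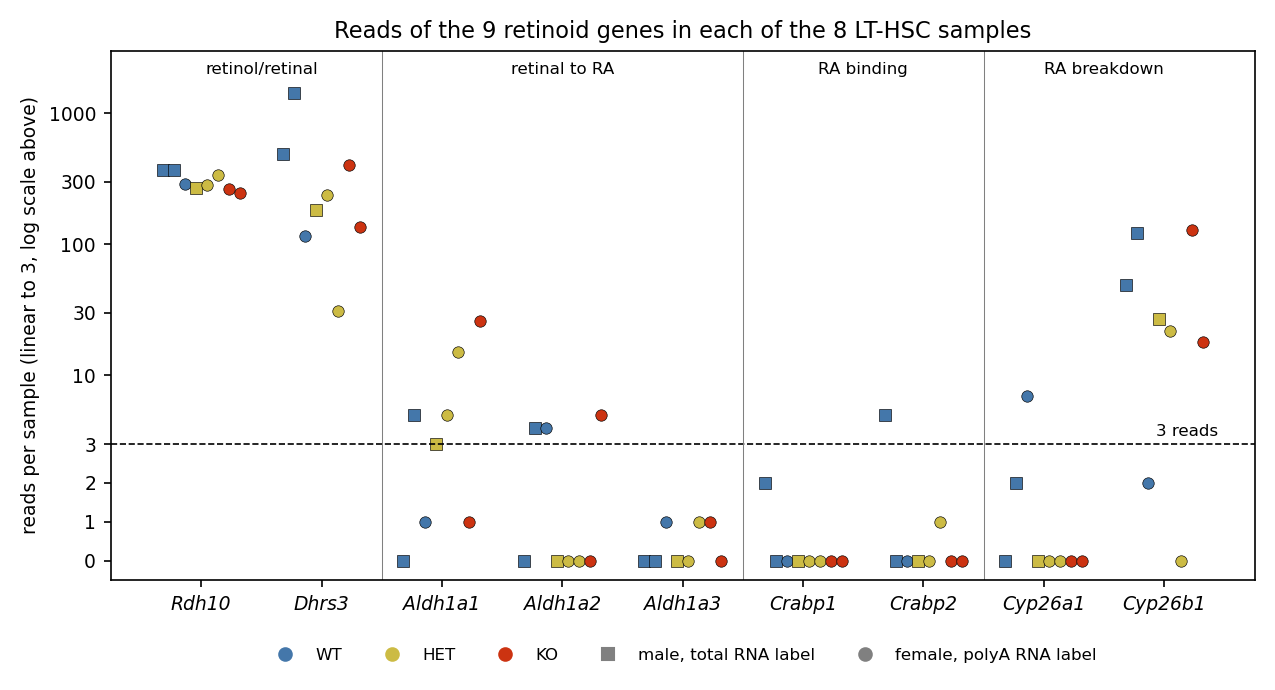
Reads of the 9 genes (columns, in the order of the pathway) in each sample, on an axis that is linear up to 3 reads and logarithmic above. Colours give the genotype and shapes the sex, and the dashed line marks 3 reads. *Rdh10* lies between 245 and 372 reads, *Dhrs3* between 31 and 1434, and most values of *Aldh1a2*, *Aldh1a3*, *Crabp1*, *Crabp2* and *Cyp26a1* lie at or under the line.

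The transcripts were read against the promoter letters of the genes, since *Cyp26a1*, *Cyp26b1* and *Dhrs3* are all known RA targets but differed widely in level here. RefSeq windows on GRCm38.p6, from 250 bases before to 50 bases after a start site, were at hand for 6 of the 9 genes (9 windows). They were searched on both strands for the 6-base motifs that RAR and RXR bind, with AGGTCA as the first form, AGTTCA as the second, GGGTCA as another and GGTTCA as the last, and for pairs of them in the same orientation spaced by 1, 2 or 5 bases. The windows of *Cyp26a1* (chr19:37697558-37697857, plus strand), *Dhrs3* (first start site, chr4:144892577-144892876, plus strand) and *Cyp26b1* (chr6:84593761-84594060, minus strand) are printed 5′ to 3′ on the gene's strand, with a matching pair in capitals:
Cyp26a1: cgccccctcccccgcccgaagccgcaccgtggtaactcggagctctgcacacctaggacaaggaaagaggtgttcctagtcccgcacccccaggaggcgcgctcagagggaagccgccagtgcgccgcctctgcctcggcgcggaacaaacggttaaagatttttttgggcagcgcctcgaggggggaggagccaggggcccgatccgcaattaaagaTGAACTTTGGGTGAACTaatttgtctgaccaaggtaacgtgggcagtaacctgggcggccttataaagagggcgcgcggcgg
Dhrs3: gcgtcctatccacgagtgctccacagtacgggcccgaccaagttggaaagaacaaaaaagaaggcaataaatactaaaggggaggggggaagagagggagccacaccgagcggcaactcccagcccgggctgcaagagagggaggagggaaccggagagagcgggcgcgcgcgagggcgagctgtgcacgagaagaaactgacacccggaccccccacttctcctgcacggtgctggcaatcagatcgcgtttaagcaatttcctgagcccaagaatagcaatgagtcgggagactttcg
Cyp26b1: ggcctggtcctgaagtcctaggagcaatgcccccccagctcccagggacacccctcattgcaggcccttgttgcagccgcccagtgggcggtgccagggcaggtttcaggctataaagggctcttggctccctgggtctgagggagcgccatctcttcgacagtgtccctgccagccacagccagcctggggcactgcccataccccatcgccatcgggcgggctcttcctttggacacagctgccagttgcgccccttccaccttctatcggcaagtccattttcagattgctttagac
The *Cyp26a1* window held 1 pair spaced by 5 bases. It is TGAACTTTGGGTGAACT as printed, which reads as AGTTCA repeated on the opposite strand, and it begins at position -32 from the start site. Such a pair spaced by 5 stood in 32 of 32851 windows of this length (0.0974%), and any of the 3 spacings in 193 (0.588%). No pair was found in the windows of *Dhrs3*, *Cyp26b1*, *Aldh1a1*, *Aldh1a2* or *Crabp1*. A match is a description of these letters only, and elements outside the window were not searched.

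*Rdh10*, the retinol dehydrogenase of the first step (ENSMUSG00000025921, chromosome 1, 16105774-16133734, plus strand), was the steadiest of the measured genes. Its reads were 367, 372 and 290 in WT1, WT2 and WT3, 270, 282 and 336 in HET1, HET2 and HET3, and 266 and 245 in KO1 and KO2. In CPM these were 17.2, 15.5 and 15.1 in the WT, 14.4, 14.2 and 19.9 in the HET, and 13.0 and 12.0 in the KO. The mean was 15.9 ± 1.09 CPM in WT (SD, n = 3), 16.2 ± 3.26 in HET (n = 3) and 12.5 ± 0.685 in KO (n = 2). Both KO samples were below all 6 others, a pattern seen in 1.85% of the 20610 genes tested, and the exact two-sided permutation p on log2 CPM was 0.0714 (0.0357 is the smallest that 2 samples against 6 can give). The SD of its log2 CPM over the 8 samples was 0.226, against a median of 0.459 among the 3219 genes within 2-fold of its mean, of which 12.0% had a smaller SD.

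*Dhrs3*, the retinal reductase that opposes *Rdh10* (ENSMUSG00000066026, chromosome 4, 144892827-144928209, plus strand), varied far more. It had 493, 1434 and 115 reads in WT1, WT2 and WT3, 182, 236 and 31 in HET1, HET2 and HET3, and 400 and 136 in KO1 and KO2. The CPM values were 23.1, 59.9 and 5.99 in the WT, 9.68, 11.9 and 1.84 in the HET, and 19.6 and 6.69 in the KO. WT2 was the highest and HET3 the lowest, a 32.6-fold range, and the 3 genotypes overlapped. The means were 29.7 ± 27.6 CPM in WT, 7.81 ± 5.29 in HET and 13.1 ± 9.11 in KO. Its SD of 1.48 on the log2 scale was larger than that of 89.7% of genes at its level.

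Set against *Rdh10* within each library and per base of exon, *Dhrs3* ran from 0.131 times the *Rdh10* level in HET3 to 5.48 times in WT2. The ratio was 1.91 in WT1, 0.564 in WT3, 0.958 in HET1, 1.19 in HET2, 2.14 in KO1 and 0.789 in KO2. Transcripts of the reductase therefore exceeded those of the dehydrogenase in 4 of the 8 samples (WT1, WT2, HET2 and KO1), 1 or more of each genotype.

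The RA-forming dehydrogenases were near or under the floor. *Aldh1a1* (ENSMUSG00000053279, chromosome 19, 20492715-20643465) had 0, 5 and 1 reads in the WT, 3, 5 and 15 in the HET, and 1 and 26 in the KO. *Aldh1a2* (ENSMUSG00000013584, chromosome 9, 71215789-71296243), the main RA-forming enzyme of the early embryo, had 0, 4 and 4 reads in the WT, 0 in all 3 HET, and 0 and 5 in the KO. *Aldh1a3* (ENSMUSG00000015134, chromosome 7, 66390890-66427517) had at most 1 read. No sample exceeded the floor for all 3 enzymes, and WT1, HET1 and KO1 were at or below it for each of them. *Aldh1a1* and *Aldh1a2* overlap 2 and 1 genes on the opposite strand, with 0 shared exon bases, and these had at most 1 read over the 8 samples. The strand counted is not given in the sources used here. Their means over the 8 samples were 0.361 and 0.0777 CPM.

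The intracellular RA carriers were likewise almost absent from the counts. *Crabp1* (ENSMUSG00000032291, chromosome 9, 54764748-54773110) had 2 reads in WT1 and 0 in the other 7 samples. *Crabp2* (ENSMUSG00000004885, chromosome 3, 87948666-87953376), which delivers RA to its receptor, had 5 reads in WT1, 1 in HET3 and 0 elsewhere. A count of 0 has an upper Poisson limit of 3.69 reads, which is above the 3 reads that correspond to 0.125 to 0.178 CPM, depending on the sample. Levels up to that limit cannot be told from absence at this depth.

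The 2 RA-degrading enzymes differed from each other. *Cyp26a1* (ENSMUSG00000024987, chromosome 19, 37697798-37701536, plus strand), the gene with the paired motif in its window, had 2 reads in WT2, 7 in WT3 and 0 in the other 6 samples, both KO included. *Cyp26b1* (ENSMUSG00000063415, chromosome 6, 84571414-84593908, minus strand) had 49, 122 and 2 reads in WT1, WT2 and WT3, 27, 22 and 0 in HET1, HET2 and HET3, and 129 and 18 in KO1 and KO2. In CPM it was 2.29, 5.10 and 0.104 in the WT, 1.44, 1.11 and 0 in the HET, and 6.31 and 0.885 in the KO. KO1 and WT2 were the highest, KO2 lay within the range of the HET samples, and WT3 and HET3 were at or below the floor. The means were 2.50 ± 2.50 CPM in WT, 0.849 ± 0.753 in HET and 3.60 ± 3.84 in KO. Its SD of 2.10 on the log2 scale exceeded that of 91.6% of genes at its level.

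**Figure D2:**
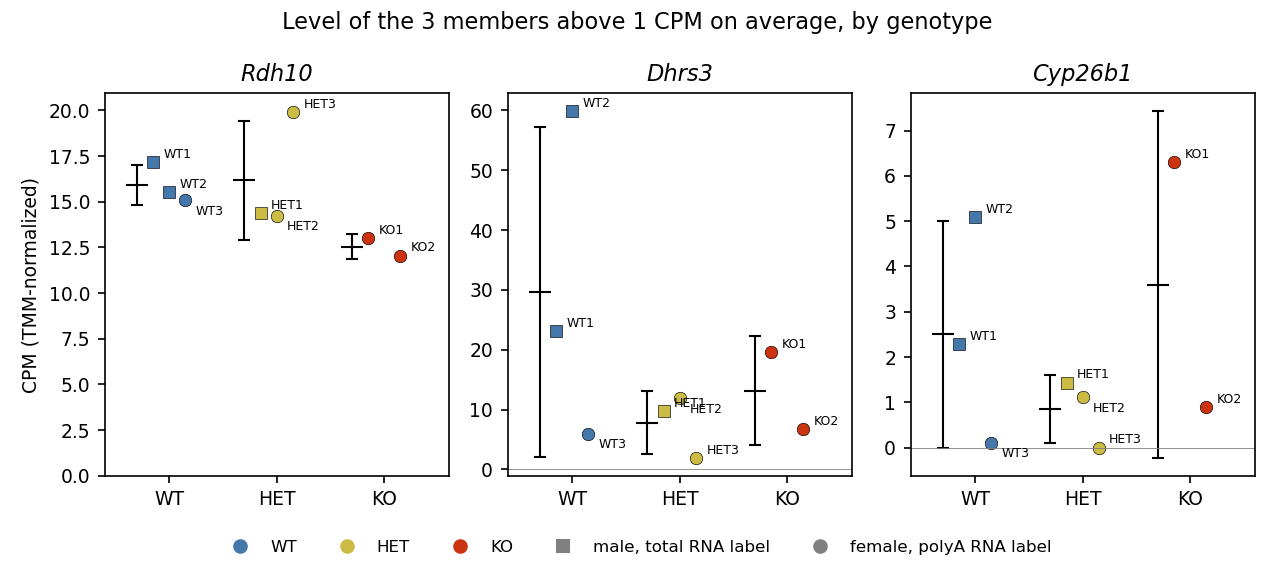
TMM-normalized CPM of *Rdh10*, *Dhrs3* and *Cyp26b1*, 1 point per sample, with colours for the genotype and shapes for the sex, and a bar for the mean and SD of each genotype (n = 3, 3 and 2). The KO points of *Rdh10* lie below all others, while KO1 and KO2 of *Dhrs3* (19.6 and 6.69 CPM) and *Cyp26b1* (6.31 and 0.885 CPM) stand far apart.

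To ask whether loss of *IκBα* changed these genes, the KO was compared with the pooled WT and HET samples by edgeR's quasi-likelihood test, with sex in the model. Calls needed a Benjamini-Hochberg adjusted p under 0.05 together with a log2 fold change beyond 1 in either direction. None of the 5 tested genes was called by edgeR, as was the case for 0 of all 20610 genes (0%), although 5196 of these (25.2%) had an unadjusted p under 0.05. With DESeq2, 1825 genes (8.85%) were called without shrinkage and 1463 (7.1%) with apeglm shrinkage, and again none of the 5.

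*Cyp26b1* had the largest difference, a log2 fold change of 3.11 (SE 1.39, adjusted p = 0.204 by edgeR). Its DESeq2 fold change was 3.12 without and 0.40 with shrinkage (adjusted p = 0.0865 for both). This fold is set by the female side of the model, where KO1 and KO2 with 6.31 and 0.885 CPM faced WT3, HET2 and HET3 with 0.104, 1.11 and 0 CPM. It was 1.10 without KO1, 1.66 without WT3 and HET3 (against HET2 alone), and 5.90 without HET2 (adjusted p = 0.0687). On the log2 CPM scale without a model, the groups overlapped and the exact permutation p was 0.5.

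*Dhrs3* had a log2 fold change of 0.99 (SE 0.881, adjusted p = 0.496 by edgeR). It was 0.02 without KO1, 0.11 without WT3 and HET3 (against HET2 alone), and -0.51 when sex was left out of the model. Its direction thus depended on the sex term. *Rdh10* had a log2 fold change of -0.39 (SE 0.254, adjusted p = 0.351 by edgeR), with a negative value in every setting tried, from -0.48 without HET2 to -0.21 without WT3 and HET3. *Aldh1a1* and *Aldh1a2*, at their few reads, had 0.74 (SE 1.53, adjusted p = 0.785 by edgeR) and 0.75 (SE 2.03, adjusted p = 0.845), or 1.35 (SE 2.21) and 4.42 (SE 3.86) without WT3 and HET3.

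**Figure D3:**
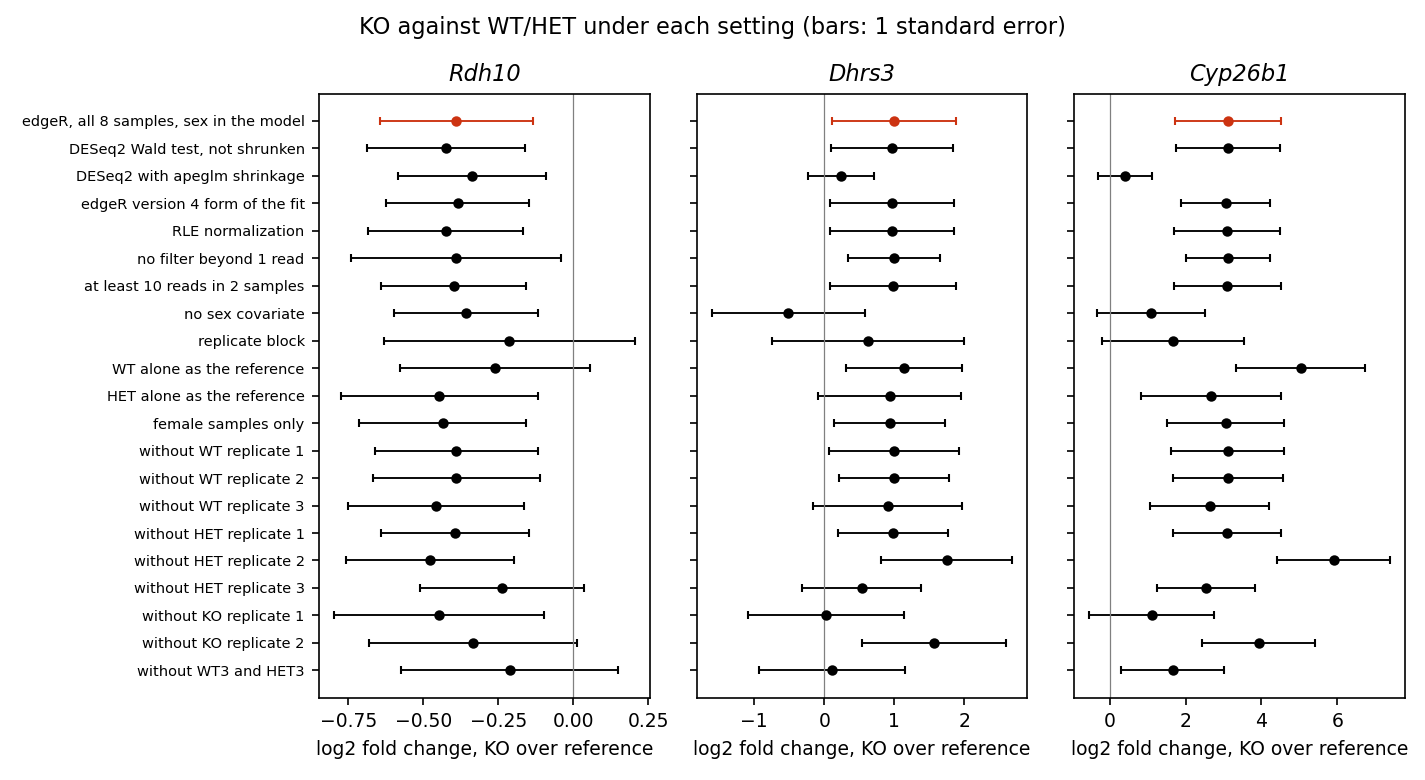
Log2 fold change of *Rdh10*, *Dhrs3* and *Cyp26b1* in KO over the reference, 1 row per setting, with bars of 1 standard error and the edgeR fit on all 8 samples in red. *Rdh10* stays below 0 in each row, *Dhrs3* runs from -0.51 to 1.75, and *Cyp26b1* from 0.40 to 5.90. The horizontal scale differs between the panels.

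Because the HET samples form part of the reference, the HET and WT samples were also compared with each other, again allowing for sex. No gene of 20585 was called by edgeR (0%), against 747 (3.63%) at an unadjusted p under 0.05 and 64 (0.311%) called by DESeq2. *Dhrs3* was at 9.68, 11.9 and 1.84 CPM in the HET and 23.1, 59.9 and 5.99 CPM in the WT, with a log2 fold change of -0.96 (SE 1.01, adjusted p = 0.958 by edgeR). Without WT3 and HET3, which leaves 2 samples of each genotype, it was -2.10 (SE 0.472, adjusted p = 0.0111) and passed the threshold, as did 1967 of 20499 genes (9.6%). In the edgeR fit on all WT and HET samples, *Rdh10* differed by -0.0055 (SE 0.275) and *Cyp26b1* by 0.21 (SE 1.71), both with an adjusted p above 0.99. Without WT3 and HET3, again HET1 alone against WT1 and WT2, they differed by -0.19 and -1.36. Within the same-numbered pairs of WT and HET, *Dhrs3* and *Cyp26b1* were lower in the HET in 3 of 3, although the third pair of *Cyp26b1* was at 0 and 2 reads. The summed HSC markers were lower in the HET in each pair as well (353, 352 and 189 CPM against 994, 1050 and 207 CPM). The share of all genes with this pattern was not counted, so it is not read as a result about these genes. With the replicate number as a block, *Dhrs3* was at -1.46 (SE 0.337, adjusted p = 0.565 by edgeR), *Cyp26b1* at -1.14 (SE 1.16, adjusted p = 0.907) and *Rdh10* at 0.071 (SE 0.357), so that the block turned the direction of the last 2. Only WT2 and HET2 differed in sex within a pair. The sex term took up that pair, and the block values rest on WT1 with HET1 and WT3 with HET3.

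The male and female WT and HET samples were compared next, since both KO samples were female. Here edgeR called 3 of 20585 genes (0.0146%), none of them among the 5, while 22.7% had an unadjusted p under 0.05 and DESeq2 called 8.93%, again none of the 5. The 3 male samples had 1.44 to 5.10 CPM of *Cyp26b1* and the 3 female samples 0 to 1.11 CPM, without overlap, a pattern shared by 21.3% of genes. Its log2 fold change was 2.97 (SE 1.77, adjusted p = 0.344 by edgeR), and the exact permutation p was 0.1, the smallest that 3 against 3 can give. *Dhrs3* differed by 1.64 (SE 1.01, adjusted p = 0.359), with overlapping samples. *Rdh10* differed by -0.07 (SE 0.276, adjusted p = 0.906). Without HET2 alone, *Dhrs3* and *Cyp26b1* reached 2.63 and 5.52 (adjusted p = 0.00958 and 0.0117 by edgeR), with 14.6% of all genes called. Without WT3 and HET3, HET2 is the only female and both WT samples are male. With genotype in the model, the values of -0.30 for *Dhrs3* and 0.37 for *Cyp26b1* then set HET1 alone against HET2.

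The summed HSC markers moved with the same samples. They were 353 to 1050 CPM in the 3 male and 189 to 352 CPM in the 3 female WT and HET samples, with HET1 and HET2 nearly equal, and 850 and 633 CPM in KO1 and KO2, above every female reference. *Dhrs3* and *Cyp26b1* were lowest in WT3 and HET3, the 2 samples lowest in HSC markers, and highest among WT1, WT2 and KO1, the 3 samples highest in them, whereas *Rdh10* was highest in HET3. KO2 did not follow that order, since its HSC sum of 633 CPM was above HET1 and HET2 but its 6.69 CPM of *Dhrs3* and 0.885 CPM of *Cyp26b1* were below both. The 4 megakaryocyte markers (*Pf4*, *Itga2b*, *Gp9* and *Ppbp*) summed to 1260 CPM in WT2 and 1010 CPM in KO1, 384 and 428 CPM in WT1 and HET2, 148 and 106 CPM in HET1 and KO2, and 61.2 and 23.1 CPM in WT3 and HET3. The 2 samples highest in *Cyp26b1* were thus also the 2 highest in this list. The 6 endothelial markers, several of which HSCs share, ran from 2.67 CPM in HET3 to 161 CPM in WT1. The 5 macrophage markers summed to 8.22 to 191 CPM and the 5 erythroid markers to 461 to 8270 CPM, with the lowest erythroid values in WT2 and KO1. The part of these markers in the results was not tested.

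**Figure D4:**
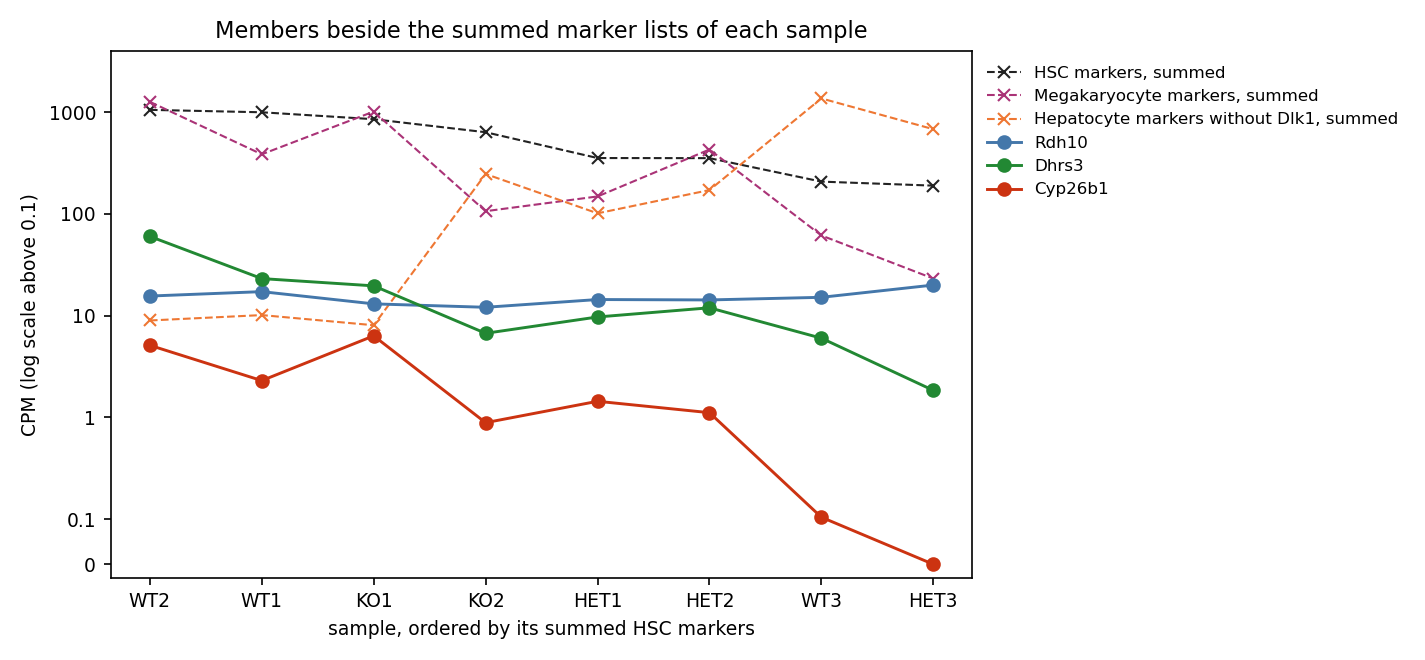
CPM of *Rdh10*, *Dhrs3* and *Cyp26b1* (solid lines) beside the summed CPM of the HSC, megakaryocyte and hepatocyte markers, the last without *Dlk1* (dashed lines), with the samples ordered by their HSC marker sum, on an axis that is logarithmic above 0.1 CPM. *Dhrs3* and *Cyp26b1* end at their lowest values in WT3 and HET3 (1.84 CPM and 0 CPM in HET3), and *Rdh10* is nearly level from 12.0 to 19.9 CPM.

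Cells of the fetal liver that are known to handle retinoids were looked for by their own markers. *Lrat*, the retinol-esterifying enzyme of stellate cells, had 0 reads in all 8 samples, and 5 to 7 of the 10 stellate or mesenchymal markers were at or below 3 reads in each sample. Others of that list were present, *Hgf* at 0 to 438 reads, *Col1a2* at 25 to 157 and *Pdgfrb* at 0 to 79, and the list summed to 4.64 to 31.9 CPM, highest in WT1 and lowest in WT3. *Krt19* had 0 reads throughout, *Msln* at most 1 and *Wt1* 11 reads in WT1 and at most 2 elsewhere, so that the mesothelial list was carried by *Podxl* (224 to 880 reads). WT1 was also the sample with the 5 reads of *Crabp2* and the 2 reads of *Crabp1*. For *Aldh1a1*, which hepatocytes also express, the 26 reads of KO2 and 15 reads of HET3 came with hepatocyte marker sums, *Dlk1* left out, of 246 and 678 CPM. WT3, with the highest such sum of 1360 CPM, had 1 read, and WT2, with 8.94 CPM, had 5.

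The genes whose profile over the 8 samples lay closest to each gene were found among 10099 genes by the root mean square difference of centred log2 CPM. For *Rdh10* they were *Eif2d*, *Ggps1* and *Guf1*, at 0.106, 0.107 and 0.107. For *Dhrs3* they were *Slc22a15*, *H2-T23* and *Ifi27*, at 0.464, 0.496 and 0.502. For *Cyp26b1* they were *Gnaz*, *Slc35d3* and *F5*, at 0.339, 0.374 and 0.43. *Gnaz* had 36.9 CPM in WT2 and 32.4 CPM in KO1, against 1.25 and 0.652 CPM in WT3 and HET3, so that the same 2 samples were highest and the same 2 lowest as for *Cyp26b1*. These distances describe 8 shared libraries and no test was made of them.

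Around the 9 genes, the rest of the retinoid pathway was taken as fixed lists. Of the retinol transport and storage genes, only single values are given, without a count for the list. The plasma carriers *Rbp4* and *Ttr*, which are hepatocyte products, reached 1620 and 1211 reads in WT3 and had 9 and 0 reads in WT2. *Stra6*, the retinol-binding protein receptor, had 1 read in KO2 and 0 elsewhere.

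Among 19 other retinol and retinal oxidoreductases, 8 were at or below 3 reads throughout and 11 were tested, of which 1 was higher and 2 were lower at an unadjusted p under 0.05. *Rdh12*, a retinal reductase, had 782, 964 and 46 reads in the WT, 193, 132 and 10 in the HET, and 507 and 317 in the KO. Its log2 fold change was 2.64 (SE 0.858, adjusted p = 0.153 by edgeR), and DESeq2 with apeglm called it at 1.99 (adjusted p = 0.0245). The log2 fold change was 1.57 without WT3 and HET3 (against HET2 alone). *Adh5*, a class III alcohol dehydrogenase found in most cells, had -0.45 (SE 0.159, adjusted p = 0.159), and the other lower one, *Bco1*, was below 1 CPM on average. Of the second list of RA breakdown and binding genes, *Cyp26c1* had 0 reads, and *Fabp5*, another RA carrier, had 1778 to 4331 reads, against at most 5 reads of either *Crabp* gene. Its log2 fold change was -0.80 (SE 0.368, adjusted p = 0.213 by edgeR).

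Of the 6 receptors, 5 were tested and 3 were higher at an unadjusted p under 0.05 (*Rara*, *Rarg* and *Rxrb*, with log2 fold changes of 1.74, 2.43 and 0.41 and adjusted p from 0.148 to 0.191 by edgeR). DESeq2 with apeglm called *Rara* and *Rarg* (adjusted p = 0.00877 and 0.0279). Of 9 textbook RA targets outside the 9 genes, 6 were tested and 2 were higher (*Hoxb5* at 2.88 and *Nrip1* at 0.90, adjusted p = 0.188 and 0.148 by edgeR). Beside these counts, 15.7% of all tested genes were higher and 9.48% lower at the same unadjusted threshold. Without WT3 and HET3 these shares were 4.07% and 1.02%, in a fit that set KO1 and KO2 against HET2 alone. Against that 1 library, the 6 genes named as higher (*Rdh12*, *Rara*, *Rarg*, *Rxrb*, *Hoxb5* and *Nrip1*) were above 0, with an adjusted p of 0.682 to 0.70. In CPM, the male WT1 and WT2 lay above both KO samples for *Rdh12*, *Rara* and *Hoxb5*. For *Rarg*, *Rxrb* and *Nrip1*, KO1 lay above WT1 and WT2, and KO2 below WT2.

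**Figure D5:**
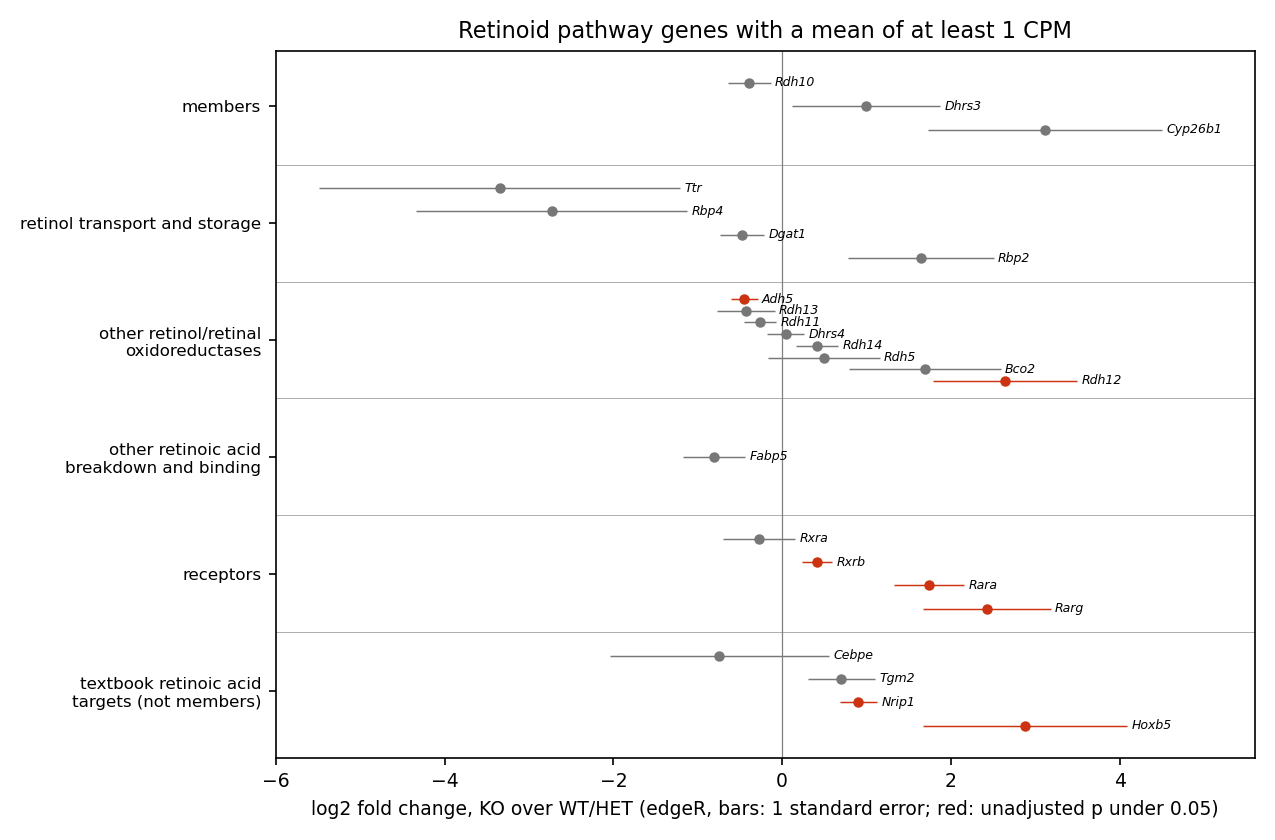
Log2 fold change of KO over WT/HET (edgeR, bars of 1 standard error) for retinoid pathway genes with a mean of at least 1 CPM, grouped by list, in red where the unadjusted p was under 0.05. *Rdh12*, *Rara*, *Rarg* and *Hoxb5* lie between 1.74 and 2.88, and *Rbp4* and *Ttr* at -2.73 and -3.35 with wide bars.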

How the data were processed

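The authors deposited raw counts per Ensembl gene. Per the methods, 50-base single-end reads were trimmed with Trim Galore 0.6.6, aligned to GRCm38 with STAR 2.7.8, and only unique alignments were counted, without normalization. Unique counting lowers genes with near-identical copies. A second table, log2 values transformed with DESeq2 and corrected for sex, was not used here. A further KO sample, discarded by the authors for its sequencing quality, was not analysed here.

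Genes with 10 or more reads over the 8 samples (20610) were normalized by TMM and tested with edgeR 4.0.16 (glmQLFit in its legacy form) in R 4.3.3. CPM divide by the reads on those genes times the TMM factor. The alternative was DESeq2 1.42.0, with shrinkage by apeglm 1.24.0, since the methods name DESeq2. Single values were compared by exact two-sided permutation of log2 CPM (prior count 2). Promoter letters are from RefSeq, and positions from GENCODE M21 on GRCm38, counted from 1.

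Same-numbered WT and HET samples deviated together (correlations of 0.293, 0.199 and 0.590 for numbers 1, 2 and 3). The study's reporting summary states, for its experiments in general, that littermates were used where possible. The replicate number was therefore fitted as a block in an alternative setting. The main fits and the permutation tests left this pairing out. The labels do not tie a number to a litter, and WT2 correlated more with HET1 (0.403) than with HET2. No 2 samples of a genotype were within sampling noise.

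The members and lists were chosen with earlier results of these data known, by name and role. Other pathway genes were named at an unadjusted p under 0.05 with a mean of at least 1 CPM, and *Rbp4*, *Ttr*, *Stra6*, *Bco1*, *Cyp26c1*, *Fabp5* and the markers singled out were named after their values were seen. Some genes of the lists are not reported here, and sums and plots leave them out.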

Additional observations from a re-analysis of the deposited data

Results flagged for a closer look

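Among the 6 WT and HET samples, 1 sample stood far from the others for 4 of the genes, by the gap to its neighbour as a share of the range. These were HET3 for *Aldh1a1* (0.89 CPM, 15 reads), WT2 for *Dhrs3* (59.9 CPM), WT3 for *Cyp26a1* (0.365 CPM, 7 reads) and WT1 for *Crabp2* (0.234 CPM, 5 reads). The cutoff marks about 1 in 20 groups if the values are normally distributed. That does not hold for genes with mostly 0 reads, where a lone count can pass, so no chance rate is given here. Of the 4, 3 rest on 15 reads or fewer.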

How the results depend on the processing

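With 2 KO samples and sex coincident with the RNA label, the genes' fold changes in KO rest on few libraries. Against 0 genes called by edgeR in KO, DESeq2 called 1825 and with apeglm 1463, the version 4 form of edgeR 1, no filter beyond 1 read 1106, WT alone as the reference 662, and leaving out 1 sample 0 to 730. For HET against WT (0 called), DESeq2 called 64, leaving out 1 sample 0 to 135, and without WT3 and HET3, a setting chosen after seeing the data, 1967. For male against female (3 called), DESeq2 called 1838, the fit without WT3 and HET3 46, and leaving out 1 sample gave 1 to 2999 (2999 without HET2, 1482 without HET1). The cause of these differences was not tested.

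Directions turned as follows. In KO, *Dhrs3* was -0.51 without the sex covariate and *Aldh1a2* -0.73 against WT alone. In HET against WT, *Rdh10* was 0.021 without the sex covariate, and *Cyp26b1* -0.75 with version 4 of edgeR, -1.55 without the sex covariate and -1.36 without WT3 and HET3. In male against female without WT3 and HET3 (HET1 alone against HET2), *Rdh10* was 0.013 and *Dhrs3* -0.30. Leaving out 1 sample gave in KO 0.02 to 1.75 for *Dhrs3*, 1.10 to 5.90 for *Cyp26b1*, -0.48 to -0.24 for *Rdh10*, -2.86 to 2.06 for *Aldh1a1* and -3.62 to 4.38 for *Aldh1a2*. It gave in HET against WT -2.10 to 0.20 for *Dhrs3*, -1.59 to 2.37 for *Cyp26b1* and -0.19 to 0.17 for *Rdh10*, and between the sexes 0.49 to 2.74, 1.34 to 5.52 and -0.25 to 0.071 for the same genes. A sample left alone in its group was assumed to vary like the others. With library size only, the mean of *Rdh10* in KO was 13.6 CPM.

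With the replicate number as a block, HET against WT gave 0.071 for *Rdh10*, -1.46 for *Dhrs3* and -1.14 for *Cyp26b1*, male against female 0.20 for *Rdh10* and 0 called genes, and KO 0 called genes, 0.62 for *Dhrs3* and 1.66 for *Cyp26b1*. The block changed no call among the 5 tested genes. KO1 correlated at 0.278 with WT1 and 0.244 with HET1, and KO2 at -0.346 with WT2 and -0.124 with HET2. With only 2 KO samples, their deviations from the KO mean mirror each other. These values therefore cannot show whether the KO samples were paired with the others. Depth limits the other 4 genes, which were not tested.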
